A study of Mus musculus with 16 samples.

Results

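Binding of BMAL1 was described here at Il6ra, Socs3, Orm2 and Cxcl1, 4 genes of the inflammatory and acute phase response of the liver. The sites were the intervals of the authors' merged peak table whose nearest gene carries one of these names, at any distance, with the overlapping peaks in the list of each library. There were 6 such intervals among 7043 in all, and they held 7 of the 9986 peaks in the 8 lists. Of the 6 intervals, 3 belonged to Cxcl1 and 1 to each of the other genes. The genes were chosen for the strength of their peaks in the library of misaligned males at ZT12, so their presence in that list is a description and no finding.

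Chromatin immunoprecipitation and sequencing had been run on livers of C57bl6 mice aged 8 to 16 weeks, kept in 12 h light and 12 h dark with free access to food. All groups, controls included, had been moved from chow to a diet with 42% of calories from fat at the start of the protocol. The 8 BMAL1 libraries were male misaligned ZT12, male control ZT12, male misaligned ZT0, male control ZT0, female misaligned ZT12, female control ZT12, female misaligned ZT0 and female control ZT0, each 1 library pooled from 3 to 4 mice. The schedule used for misalignment is not described in the labels, and 8 IgG libraries of the same groups were not used here. With 1 library per group, no difference below can be set against replicate error, and no test between libraries was made. The lists held 5542, 290, 1864, 373, 221, 141, 1330 and 225 peaks in the order just given. Their depth is unknown, but the smallest local background seen in each list, a stand-in for depth, lay between 4.25 and 6.16 fragments. Of 10 clock genes known as BMAL1 targets, 10 had a peak within 10 kb of the transcription start site (TSS) in each of the 8 lists. Peaks do not measure expression, so the tissue could not be checked by markers. Of 5 hepatocyte markers, 1 (Cps1) had a peak that near in male misaligned ZT12, beside 8.9% of protein-coding genes, and none did elsewhere. At any distance 4 of the 5 had one in male misaligned ZT12, beside 12.7%, and Alb had one in female misaligned ZT0. Within 10 kb, 0 of 20 markers of myeloid, stellate, endothelial and lymphoid cells had a peak in any list. At any distance Stab2, an endothelial marker, alone had one, in male misaligned ZT12.

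BMAL1 pairs with CLOCK and binds E-boxes, short DNA motifs whose canonical form reads CACGTG, to drive genes with a daily rhythm. In the liver, interleukin-6 binds its receptor on hepatocytes, and the receptor complex activates the transcription factor STAT3. STAT3 switches on genes of acute phase proteins, which hepatocytes secrete into blood, and also Socs3, whose product blocks the receptor complex in a feedback loop. Chemokines such as CXCL1 draw neutrophils into inflamed tissue, and their genes are classic targets of the transcription factor NF-kB.

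The promoters of 3 of the 4 genes lay at least in part under a peak, and their RefSeq sequences on GRCm38.p6 are printed here. Each runs 5′ to 3′ in the direction of the gene, from 250 bases before the TSS. Capitals mark matches on either strand to 4 motifs, of which these windows held 2. In Il6ra the capitals are the canonical E-box. In Cxcl1 they are the kappa B motif GGGAATTTCC, a site of NF-kB that was added to the search after the sequence had been seen. Orm3, the neighbouring relative of Orm2 with no peak, is shown for comparison.
Il6ra, chr3:89913147-89913446, minus strand: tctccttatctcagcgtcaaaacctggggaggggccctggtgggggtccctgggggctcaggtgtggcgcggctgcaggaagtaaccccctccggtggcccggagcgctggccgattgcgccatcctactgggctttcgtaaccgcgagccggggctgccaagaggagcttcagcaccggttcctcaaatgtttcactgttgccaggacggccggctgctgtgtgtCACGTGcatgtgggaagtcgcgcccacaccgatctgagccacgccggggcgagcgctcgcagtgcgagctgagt
Orm2, chr4:63362199-63362498, plus strand: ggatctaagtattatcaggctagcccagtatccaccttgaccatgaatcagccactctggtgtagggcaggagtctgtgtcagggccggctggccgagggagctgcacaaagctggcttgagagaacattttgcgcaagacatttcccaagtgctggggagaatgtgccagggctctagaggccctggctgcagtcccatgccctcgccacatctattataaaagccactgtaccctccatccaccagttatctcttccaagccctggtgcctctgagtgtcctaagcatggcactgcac
Orm3, chr4:63355908-63356207, plus strand: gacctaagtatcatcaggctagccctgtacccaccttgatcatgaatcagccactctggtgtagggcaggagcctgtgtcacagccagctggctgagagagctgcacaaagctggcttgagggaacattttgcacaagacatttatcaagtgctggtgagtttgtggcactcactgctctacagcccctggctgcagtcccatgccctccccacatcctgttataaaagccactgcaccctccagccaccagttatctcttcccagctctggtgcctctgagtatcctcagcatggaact
Cxcl1, chr5:90890995-90891294, plus strand: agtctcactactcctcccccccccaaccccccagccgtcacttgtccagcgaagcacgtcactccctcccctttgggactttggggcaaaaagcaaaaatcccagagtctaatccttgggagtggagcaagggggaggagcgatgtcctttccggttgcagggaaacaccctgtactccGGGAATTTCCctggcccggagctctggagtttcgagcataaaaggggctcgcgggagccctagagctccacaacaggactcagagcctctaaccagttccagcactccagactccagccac

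The Il6ra window was the one of the 3 bound promoters that held the canonical E-box. It began at position -24 from the TSS, inside the called peak and 69 bp from its summit. Over all 32851 promoter windows of the RefSeq table, 7.15% held this motif. Of the 1819 windows overlapped by a peak of male misaligned ZT12, 25% held it, and the share was 26.1% to 42% for the other 7 lists. The windows of Orm2 and Cxcl1 held no canonical E-box, and none of the 3 held the related form CACGTT. That form was in 4.68% of all windows and in 9.18% of those under a peak of male misaligned ZT12. Each of the 3 peaks also reached beyond its window, and the bases there were not searched for any motif. They include the summit of the Cxcl1 promoter peak, at -260 bp from the TSS. The kappa B motif began at position -71 from the TSS in the Cxcl1 window, and the peak of male misaligned ZT12 ended at the base before it. Of all windows, 0.0883% held that motif, among them those of the neighbouring chemokine genes Cxcl2 and Cxcl3. No peak was assigned to either of these genes, and the Cxcl3 window also held the canonical E-box, beginning at position -155. The STAT-type motif TTCNNNGAA, in 8.3% of all windows, was in none of the 3 windows under a peak. The promoter window of Socs3 held 1 copy, but no peak lay there.

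Most of the peaks at the 4 genes came from a single library. Male misaligned ZT12 held 5 of the 7 peaks, with at least 1 at each of the 4 genes, while male control ZT12 held none. For background, 12.7% of 21900 protein-coding genes had some peak assigned to them in male misaligned ZT12 and 0.712% in male control ZT12, and 12.1% had one in the misaligned library only. As the genes were picked from that list, nothing is read from 4 of 4. The reverse difference held none of the 4 genes and 0.0457% of all genes. At ZT0, male misaligned and male control livers had no peak at any of the 4 genes, beside 5.06% and 1.04% of all genes, with 4.24% called in the misaligned library only and 0.219% in the control library only. In females at ZT12, 0 of 4 genes had a peak in misaligned livers and 1 of 4, Cxcl1, in control livers, beside 0.594% and 0.356% of all genes. There 0.42% of all genes were called in the misaligned library only and 0.183% in the control library only. In females at ZT0, Cxcl1 had a peak in misaligned livers and no gene had one in control livers, beside 3.82% and 0.598% of all genes. There 3.58% of all genes were called in the misaligned library only and 0.361% in the control library only.

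**Figure D1:**
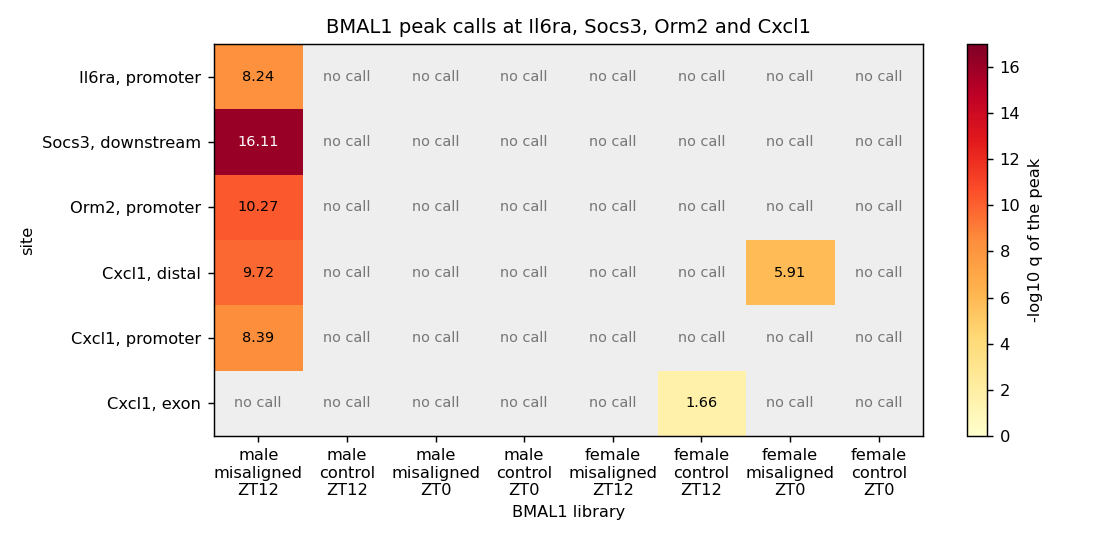
Calls at the 6 sites (rows) in the 8 BMAL1 libraries (columns), coloured and labelled by the -log10 q of the authors' peak caller, with grey for no call. Male misaligned ZT12 holds 5 of the 7 peaks, female misaligned ZT0 has 1 at the distal Cxcl1 site and female control ZT12 has 1 in the Cxcl1 exon.

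Il6ra encodes the chain of the interleukin-6 receptor that binds the cytokine. Its interval, chr3:89912944-89913394, was annotated as promoter, 27 bp from the TSS by its centre, and was called in male misaligned ZT12 alone. The summit there held 34 fragments (exact Poisson 95% interval 23.5 to 47.5) over a local background of 7.80, a fold enrichment of 3.98 with a -log10 q of 8.24. It ranked 1898 of 5542 in its list. The summit lay at -90 bp from the RefSeq TSS, and the peak covered 248 of the 300 bases of the promoter window printed above. In male misaligned ZT0, male control ZT0 and female misaligned ZT0 the nearest peak to this site was the same neighbour, assigned to Ube2q1, 139441, 139434 and 139410 bp away.

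Socs3 encodes the suppressor that shuts off signalling by the interleukin-6 receptor complex. Its site had the highest summit relative to background of the 7 peaks, yet it was the only one of the 4 genes with no peak near its start. The interval, chr11:117959860-117960260, was annotated as intergenic, 9391 bp from the TSS on the downstream side, and lay 5818 bp beyond the 3′ end of the gene in RefSeq. The peak, again in male misaligned ZT12 alone, held 41 fragments at its summit (29.4 to 55.6) over a background of 6.27. Its fold enrichment was 5.77, its -log10 q 16.1 and its rank 875 of 5542. The next RefSeq gene on the far side, Pgs1, began 26036 bp away. In 4 of the other libraries, male misaligned ZT0, male control ZT0, female control ZT12 and female control ZT0, the nearest peak was one assigned to Cyth1, 288070 to 288356 bp away.

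Orm2 encodes an alpha-1-acid glycoprotein (orosomucoid), an acute phase protein made by hepatocytes. The interval, chr4:63362276-63362591, was annotated as promoter at -16 bp and was called in male misaligned ZT12 alone. Its summit held 33 fragments (22.7 to 46.3) over a background of 6.16, a fold enrichment of 4.75 with a -log10 q of 10.3 and a rank of 1495 of 5542. The summit lay at -82 bp from the RefSeq TSS, and 223 of the 300 promoter bases were inside the peak. Orm2 sits in a cluster of near copies, with Orm3 ending 2769 bp and Orm1 14112 bp from the interval, and neither was assigned a peak in any list. The windows of Orm2 and Orm3 matched at 263 of 295 aligned bases (89.2%), with 5 gap positions. How the authors treated reads that fit several places is not given in the sources used here, so the split of reads between these copies is uncertain.

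Cxcl1 encodes a chemokine that attracts neutrophils. It was the one gene of the 4 with several sites and with peaks in more than 1 library. The distal site, chr5:90872351-90872724, was annotated as intergenic at -18706 bp and was called in 2 misaligned libraries of different sex and time. In male misaligned ZT12 its summit held 38 fragments (26.9 to 52.2) over 8.51, with a fold enrichment of 4.10, a -log10 q of 9.72 and rank 1584 of 5542. In female misaligned ZT0 it held 28 fragments (18.6 to 40.5) over 6.48, with a fold enrichment of 3.88, a -log10 q of 5.91 and rank 777 of 1330. The 2 peaks shared 231 bp, 77.8% of the male peak and 75% of the female peak, and their summits were 70 bp apart. This was the only one of the 6 intervals called in more than 1 library.

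The other Cxcl1 sites lay on either side of the TSS and came from different libraries. The promoter site, chr5:90890655-90891173, was called in male misaligned ZT12 alone. Its summit, at -260 bp from the RefSeq TSS, held 39 fragments (27.7 to 53.3) over 9.92, with a fold enrichment of 3.66, a -log10 q of 8.39 and rank 1868 of 5542. The peak covered 179 of the 300 promoter bases. The exon site, chr5:90891322-90891571, was called in female control ZT12 alone and was the only peak of a control library at any of the 4 genes. Its summit, 82 bp downstream of the TSS, held 24 fragments (15.4 to 35.7) over 7.89, with a fold enrichment of 2.81. Its -log10 q of 1.66 placed it at rank 139 of 141, and at a -log10 q of at least 3 it was no longer called. The promoter and exon intervals were separated by 148 bp and their summits by 342 bp, so they were not counted as a shared site.

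**Figure D2:**
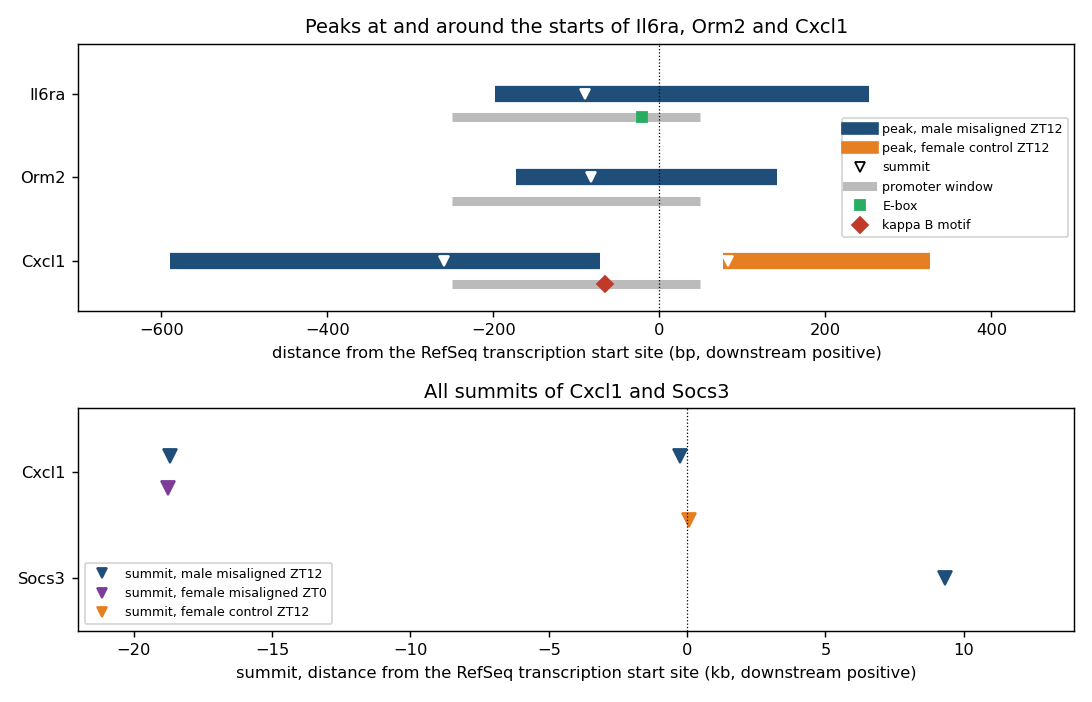
Upper panel, peaks (bars), summits (white triangles), promoter windows (grey) and motif matches of Il6ra, Orm2 and Cxcl1 by distance from the RefSeq TSS in bp. Lower panel, all summits of Cxcl1 and Socs3 in kb, coloured by library. The summits of the Il6ra and Orm2 promoter peaks lie at -90 and -82 bp, and that of Socs3 lies 9317 bp downstream.

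The standing of the 7 peaks in their own lists differed widely. The 5 peaks of male misaligned ZT12 stood in the first 15.8% to 34.2% of that list by -log10 q, with 33 to 41 summit fragments against a list median of 28. The distal Cxcl1 peak of female misaligned ZT0 stood at 58.4% of its list, with 28 summit fragments against a median of 33. The Cxcl1 exon peak of female control ZT12 stood at 98.6%, nearly the weakest of its list. None of the 7 peaks had a local background of at least 5 times the lowest of its list, the range being 1.28 to 2.33 times. When every list was shortened to its 141 strongest peaks, no misaligned library kept a peak at the 4 genes. The exon peak of female control ZT12 remained, as its list is the one of 141 peaks.

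**Figure D3:**
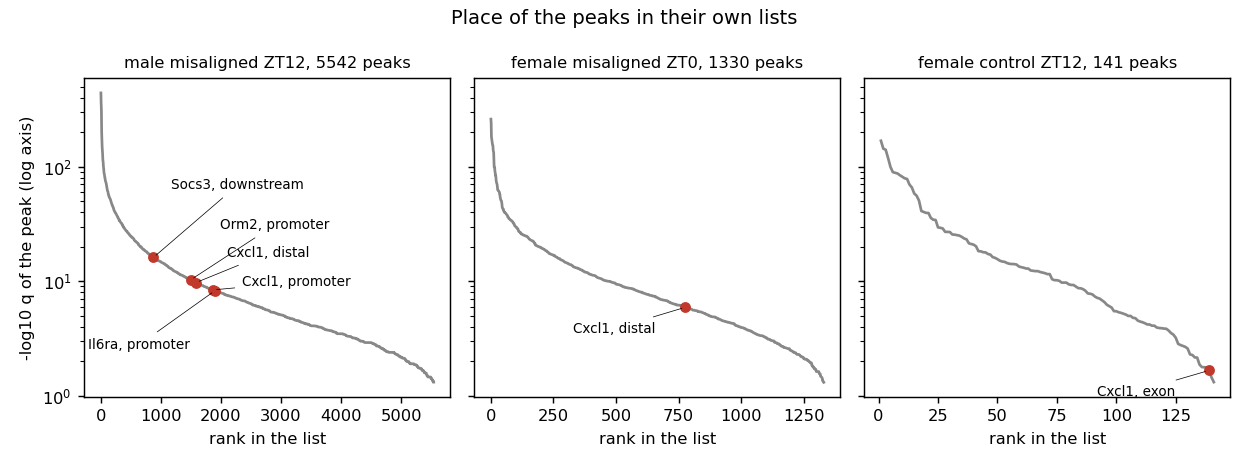
The -log10 q of every peak (log axis) against its rank in the list, for the 3 libraries with a peak at the 4 genes, with those peaks in red. The 5 peaks of male misaligned ZT12 lie between ranks 875 and 1898 of 5542, and the exon peak of female control ZT12 at rank 139 of 141.

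To see what a missing call means, the summit that each list would have needed for a call was computed. It used the lowest -log10 p called in that list, from 4.15 in male misaligned ZT12 to 5.52 in female control ZT12. The local background was taken in the same proportion to the lowest of the list as where the site was called. Heights were given relative to the smallest background among the peaks of their list, a stand-in for depth that was not checked. The Il6ra summit stood at 7.99 (5.53 to 11.2) in male misaligned ZT12, and a call would have needed 4.71 to 5.47 in the 7 libraries without one. The Socs3 summit stood at 9.64 (6.91 to 13.1), against a need of 4.06 to 4.78. At Orm2 the summit was 7.76 (5.34 to 10.9) and the need 4.06 to 4.56. At the Cxcl1 promoter they were 9.17 (6.52 to 12.5) and 5.52 to 6.15. At the distal Cxcl1 site they were 8.93 (6.32 to 12.3) and 5.03 to 5.70 in the 6 libraries without a call. These male heights are the values by which the genes were chosen, so nothing is read from their standing above the need. The assumed background is also uncertain. At the distal Cxcl1 site, the one site called in more than 1 library, it was 2.00 times the lowest of the list in male misaligned ZT12 and 1.28 times in female misaligned ZT0. The exon site of Cxcl1 differed, with a summit of 4.23 (2.71 to 6.30) in female control ZT12 against a need of 3.95 to 4.56 in the other 7 libraries. The measured height was above the need in 5 of these libraries and below it in 2, male control ZT12 and female control ZT0, and its interval held every one of these limits. The intervals cover counting error only, the sites were picked where they were high, and whether binding itself was lower elsewhere was not tested.

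**Figure D4:**
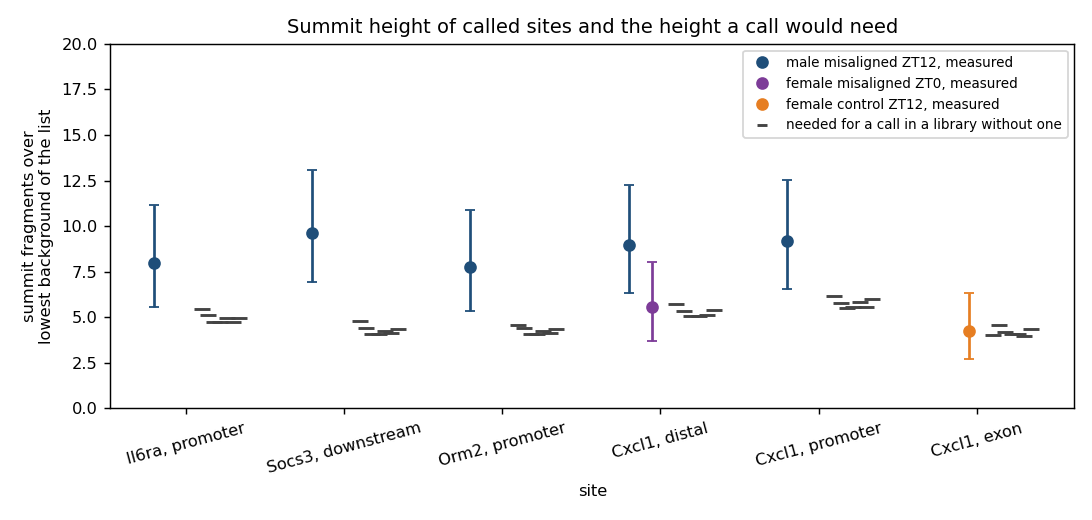
Summit fragments relative to the smallest background found in their list, with exact Poisson 95% intervals, for the called peaks at each site (points), and the height needed for a call in each library without one (dashes). The male misaligned ZT12 points, the values by which the genes were chosen, lie above the dashes at 5 sites, while the Cxcl1 exon point at 4.23 lies among its dashes, from 3.95 to 4.56.

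Across a wider set of 112 inflammation genes in 5 lists, peaks no more than 10 kb from the TSS were most numerous in the longest peak list. In male misaligned ZT12 18 of 112 genes had one (16.1%), beside 8.9% of protein-coding genes, and in male control ZT12 0 of 112, beside 0.484%. In male misaligned ZT0 there were 5 (4.46%), beside 3.52%, and in male control ZT0 1 (0.893%), beside 0.804%. Female misaligned ZT12 and female control ZT12 had 1 each (0.893%), beside 0.457% and 0.242%. Female misaligned ZT0 had 5 (4.46%), beside 2.94%, and female control ZT0 had 0, beside 0.411%. In all, 31 of the 112 genes had a peak assigned at any distance in at least 1 library, beside 15.6% of all protein-coding genes. Of these 31, which include the 4 chosen genes, 15 had one in male misaligned ZT12 alone, a share not computed for all genes. Part of the count in male misaligned ZT12 was set by the choice of Il6ra, Socs3, Orm2 and Cxcl1 for their peaks there. Without these 4 genes it was 14 of 108 (13.0%), beside 8.9% of all genes, and within 1 kb of the TSS it was 5 of 108 (4.63%), beside 5.41%. At any distance it was 21 of 108 (19.4%), beside 12.7%. The share thus lay above that of all genes within 10 kb and at any distance and below it within 1 kb, with no test made. The gene lists were also chosen with earlier results of these data known. Leaving out the 4 genes therefore does not free the count from that choice, and nothing is read from these differences. The counts in the other libraries within 10 kb were of 5 genes or fewer. At any distance, male misaligned ZT0 had 8 of 108 (7.41%), beside 5.06%, and female misaligned ZT0 10 of 108 (9.26%), beside 3.82%. The remaining libraries had 1 or 0.

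**Figure D5:**
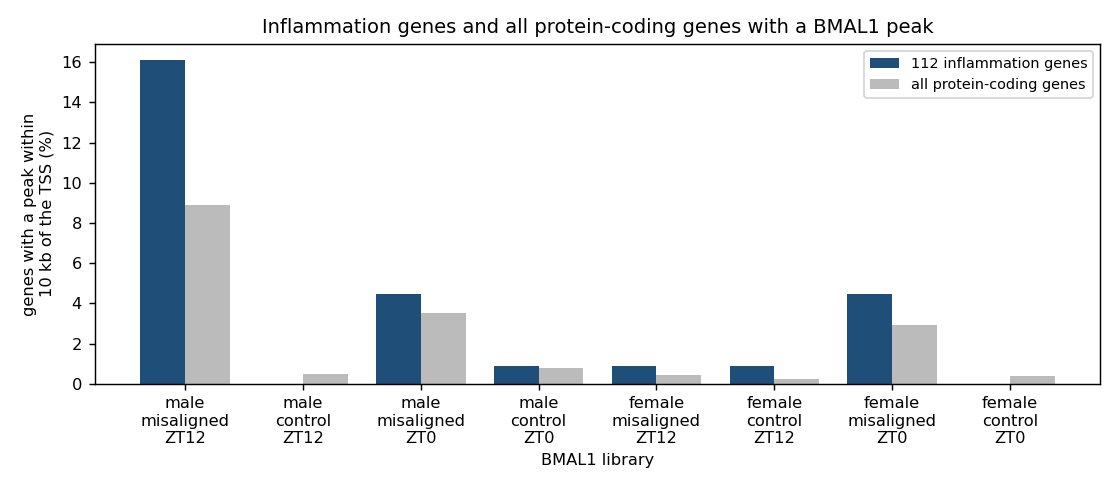
Percentage of the 112 inflammation genes (blue) and of 21900 protein-coding genes (grey) that had a BMAL1 peak no more than 10 kb from their TSS, as the authors assigned genes, in each BMAL1 library. The blue bar of male misaligned ZT12, at 16.1% against 8.9% for all genes, includes the 4 genes chosen for their peaks in that library and is 13.0% without them.

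Of 22 genes of interleukin-6 and JAK-STAT signalling, 3 had a peak within 10 kb in male misaligned ZT12 (Il6ra, Lifr and Adam10), 1 in male misaligned ZT0 (Tyk2) and none in the other libraries. Without Il6ra, which was chosen for its peak, the share in male misaligned ZT12 was 9.52% of 21 genes, beside 8.9% of all genes. Lifr, the receptor chain for leukaemia inhibitory factor, had a peak at 6030 bp in male misaligned ZT12 (-log10 q 4.22) and a stronger one at -16568 bp (8.58). The peak at -16568 bp was annotated as an intron of Lifr, so its negative distance does not place it outside the gene. In female misaligned ZT0 Lifr was nearest to a separate peak at 13137 bp (5.36). Adam10, a protease that sheds membrane proteins, reached 4.62 in male misaligned ZT12. Stat5b, a transcription factor of cytokine and growth hormone signalling, had peaks 16751 to 33567 bp from its TSS in 3 misaligned libraries, the strongest at 3.91. Cebpd, a transcription factor induced in the acute phase, was nearest to a peak 22260 bp away (3.27). Stat3 was nearest to 1 at -31289 bp (2.49), annotated as an intron of Stat3 itself, and both peaks were in male misaligned ZT12. Il6st, the shared signalling chain of the receptor complex, was nearest to a peak only in female control ZT0, 30023 bp away (1.89).

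The SOCS family, which restrains cytokine receptors, had 4 of 8 members with a peak within 10 kb in male misaligned ZT12 and 0 of 8 in each of the other 7 libraries. Among all genes the share was 8.9% in male misaligned ZT12 and 0.242% to 3.52% elsewhere. Without Socs3, chosen for its peak, 3 of 7 members had one in male misaligned ZT12. Behind Socs3 came Socs5 at -483 bp (-log10 q 8.94), Socs7 at 6699 bp in an intron (2.38) and Socs4 at 651 bp (1.71). Socs4 and Socs7 stood at ranks 5335 and 4808 of 5542.

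Among 33 acute phase genes, 6 had a peak within 10 kb in male misaligned ZT12, 3 in male misaligned ZT0, 1 in female misaligned ZT12, 3 in female misaligned ZT0 and 0 in the 4 control libraries. The shares of all genes, in the same order, were 8.9%, 3.52%, 0.457% and 2.94%, with 0.242% to 0.804% in the control libraries, so the same contrast was present over all genes. Without Orm2, chosen for its peak, 5 of 32 (15.6%) had one in male misaligned ZT12. Cp, the copper carrier ceruloplasmin, was nearest to a peak at -16738 bp in male misaligned ZT12 (15.2) and male misaligned ZT0 (8.97). C3, the central complement component, had a peak at -5550 bp in male misaligned ZT12 (7.54). Ahsg, a plasma protein that falls in the acute phase, had separate peaks in male misaligned ZT12 (3.08) and male misaligned ZT0 (6.46). In this list 9 genes, Orm2 among them, had any peak in at least 1 library, beside 15.6% of all protein-coding genes.

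Of 20 chemokine and chemokine receptor genes, 3 had any peak in at least 1 library, beside 15.6% of all protein-coding genes. Besides Cxcl1, which was chosen for its peaks, these were Ccl9, 14344 bp from its site in female misaligned ZT0 (9.37) and male misaligned ZT0 (1.95), and Cxcl10, called 4 bp from its TSS in male misaligned ZT12 (7.62). Of 29 genes of NF-kB, tumour necrosis factor and interleukin-1 signalling, 7 had any peak in at least 1 library, beside the same 15.6%. In male misaligned ZT12, 3 of the 29 had a peak within 10 kb (10.3%), beside 8.9% of all genes. By -log10 q, 2 of the 7 were stronger than any of the 4 genes described above. Tlr2, a receptor for bacterial lipoproteins, reached 41.4 in male misaligned ZT12 and 7.39 in female misaligned ZT0 at -23483 bp. Zfp36, which encodes an RNA-binding protein that destabilises cytokine messages, was called at -3114 bp in male misaligned ZT12 (39.9), male misaligned ZT0 (12.1), male control ZT0 (9.08) and female misaligned ZT0 (13.2). A second Zfp36 interval, at -3974 bp, reached 18.8 in male misaligned ZT12 and 8.27 in male misaligned ZT0. Zfp36 was the 1 gene of the 112 with a peak in a male control library. Tnfrsf1b and Tnip1 reached 4.31 and 3.89 in male misaligned ZT12, at 24726 and -31986 bp. Tnfrsf1b had a further site at 27421 bp, called in female misaligned ZT0 (3.38) and male misaligned ZT12 (1.31).

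Calls like those of the 4 genes were found at many other genes, among 7043 intervals in all. The number of all intervals within 10 kb of a TSS was not computed, so no share is given. The pattern of Il6ra, Socs3 and Orm2, a call in male misaligned ZT12 alone, was shared by 2177 intervals of other genes within 10 kb of a TSS. By fold enrichment over that 1 library, the nearest to Il6ra were Gm37650, Gm22803 and Dctpp1, to Socs3 Gm12265, Bmf and Gfod1, and to Orm2 Sycp2l, Tmem171 and Rbm14. The genes named for Il6ra tied with it at a fold enrichment of 3.98, so their order has no meaning and further ties may exist. The pattern of the distal Cxcl1 site, male misaligned ZT12 and female misaligned ZT0, was shared by 214 such intervals. There Sox12, Ing3 and Srsf6 were nearest over 2 libraries, with mean absolute differences of 0.02, 0.03 and 0.03 in log2 fold enrichment.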

How the data were processed

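The members and gene lists were chosen with earlier results of these data known. Per the submitters' processing notes, the aligner was BWA 0.7.17-r1188, the build GRCm38 and the peak caller MACS2 2.2.7.1. Its q threshold and the use of the IgG libraries as control are not given in the sources used here. Every peak in the deposited lists carries a score (10 times -log10 q), -log10 p, -log10 q and a fold enrichment, as the authors' caller wrote them. The fold enrichment is the ratio of summit to local background after a small constant was added to both, so it is below the plain ratio. Their deposited table merges the lists into 7043 intervals, with a call per library, the distance to a TSS and its gene. Its 56344 calls were checked against the lists and all matched.

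Fold enrichment and -log10 p gave back the whole number of summit fragments and the local background, with a relative tolerance of 0.0001, for 99.1% to 100% of the peaks of a list, and for 100% of 500 simulated peaks. Here fold enrichment was taken as the ratio after 1 was added to both summit and background. The simulated peaks were made with the same formulas, so they check the computation only and not whether the formulas hold for these lists. Exact Poisson 95% intervals cover counting error only. Groups came from the labels. As each had 1 library, no test was made. Shares of 21900 RefSeq protein-coding genes served as background. Up to 4 genes per list other than the 4 members were named, by highest -log10 q. A gene that this rule names is not reported here. Stat3, Il6st and Tyk2 were named after their values were seen. Promoter windows were taken from RefSeq (GRCm38.p6), and all 4 genes matched. No genome sequence was used, so motifs in the distal sites and in peak bases outside the promoter windows were not searched. Positions count from 1. Python 3.11.15, scipy 1.17.1 and pandas 2.3.3 were used. The alternatives were stricter -log10 q, lists of equal length, other distances, overlap of 50%, RefSeq TSS and removal of peaks over high background.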

Additional observations from a re-analysis of the deposited data

Results flagged for a closer look

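Peak calls within 10 kb of the Cxcl1 TSS at ZT12 differed between the sexes. In males a peak was called in the misaligned library (fold enrichment 3.66) and not in the control library, and in females none was called in the misaligned library and one was called in the control library (fold enrichment 2.81). Of all protein-coding genes, 12.1% had a peak in the misaligned library only in males and 0.183% in the control library only in females, at any distance. The difference between the sexes was not tested, as each group had 1 library. The peaks were different intervals 148 bp apart, and the female one ranked 139 of 141 in its list and was no longer called at a -log10 q of at least 3. Whether binding itself differed was not tested.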

How the results depend on the processing

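No paired analysis was possible because each group had 1 library, and for the same reason no library could be left out of a group. Of 78 values under an alternative, 54 stayed within 1.5 times the main count and 24 did not. The 54 include counts of 0 that stayed 0, in male control ZT12 and female control ZT0, and a 0 cannot fall under a stricter setting. The 5 gene and library pairs called in misaligned libraries became 0 with lists shortened to 141 peaks, and 3 within 1 kb of the TSS. The 1 pair of the control libraries became 0 at a -log10 q of at least 3 and of at least 5. Counts of the 112 inflammation genes within 10 kb moved as follows. In male misaligned ZT12 the 18 genes became 10 at a -log10 q of at least 5, 0 with shortened lists and 8 within 1 kb. In male misaligned ZT0 the 5 genes became 3, 0 and 2 in the same order, and 8 at any distance. In female misaligned ZT0 the 5 genes became 2, 0 and 3, and 11 at any distance. The 1 gene of male control ZT0 became 0 with shortened lists and within 1 kb. The 1 gene of female misaligned ZT12 became 0 at a -log10 q of at least 5, with shortened lists and by RefSeq TSS. The 1 gene of female control ZT12, Cxcl1, became 0 at a -log10 q of at least 3 and of at least 5, and 0 without the 4 genes described above, an alternative chosen after seeing the data. The 0 genes of female control ZT0 became 1 at any distance. Shorter lists and narrower distances hold fewer peaks by construction, and RefSeq TSS were at hand for 84 of the 112 genes. Depth per library is unknown.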
